A study of Mus musculus with 8 samples.

Results

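The retinoid genes described here are 9 genes that carry vitamin A from uptake to transcription: Stra6, Dhrs3, Aldh1a1, Aldh1a2, Aldh1a3, Crabp1, Crabp2, Rara and Rarb. They were chosen by symbol, and GENCODE M21 matched all 9 to 1 Ensembl ID each among the 50143 gene IDs of the count table. Their messenger RNA was counted by RNA sequencing in 8 tumours, 4 per group. Each tumour arose in mammary gland 4 of a female C57BL/6 mouse after injection of Py230 cells, an established line of mouse breast adenocarcinoma, and was resected on day 56. All hosts of both groups had been ovariectomized when 6 weeks old. Hosts of the obese group ate a high-fat diet of 5.1 kcal/g, in which fat supplied 60% of calories, and hosts of the lean group a regular diet of 3.6 kcal/g and 10% fat calories. Both diets began 2 weeks after the surgery and ran for 6 weeks, and the high-fat diet left the mice 35% heavier on average. The comparison asks which retinoid genes differ in level between tumours of obese and of lean hosts, for 1 cell line and in hosts without ovaries. The labels do not say whether each tumour came from a separate mouse, so the p-values measure the spread between these tumours.

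Retinol, the circulating form of vitamin A, enters cells through the membrane receptor STRA6. Dehydrogenases oxidize it reversibly to retinal, and the retinaldehyde dehydrogenases of the ALDH1A family oxidize retinal irreversibly to retinoic acid. Retinoic acid is carried in the cytoplasm by the binding proteins CRABP1 and CRABP2, and in the nucleus it binds the retinoic acid receptors (RAR), which act with retinoid X receptors (RXR) on response elements in DNA. CYP26 enzymes degrade it. In the mammary gland and other epithelia retinoic acid is known for promoting differentiation, and ALDH1A activity is widely used to mark mammary progenitor cells.

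Libraries held 25.7 to 66.7 M counts. Levels are in CPM, counts per 1 M counts after scaling by edgeR's TMM factors. A count of 0 still allows up to 3 counts, or 0.0494 to 0.124 CPM depending on the library, a limit for counting error only. Obese replicate 3 stood apart from the other obese tumours in epithelial RNA. The 9 luminal epithelial markers summed to 869 CPM in it, to 66.3, 274 and 244 CPM in obese replicates 1, 2 and 4, and to 1395 to 2782 CPM in the lean tumours. Epcam, a defining epithelial surface gene, was at 175 CPM in obese replicate 3, at 0.495 to 5.52 CPM in the other obese tumours and at 233 to 539 CPM in the lean tumours. Each retinoid result is therefore also given without obese replicate 3 where this ended a call or moved the fold change by over 1.5 times. In these bulk tumours, fewer cells of a type and less RNA per cell cannot be told apart.

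Most retinoid genes that passed the test were lower in obese tumours. Of the 9 genes, 8 passed the filter on low counts, and of these 5 fell (Dhrs3, Aldh1a1, Aldh1a2, Aldh1a3 and Crabp2), 1 rose (Rara) and 2 did not pass the test (Stra6 and Crabp1). Rarb had too few counts for the filter and is described from its counts. Among all 14887 tested genes 59.2% passed the same threshold (28.4% lower and 30.9% higher), an adjusted p under 0.05 in edgeR's quasi-likelihood test. The median log2 change (obese minus lean) was −1.59 over the 8 retinoid genes and −0.04 over all tested genes. Values of the groups did not overlap for 4 of the genes that fell and for Rara, where 57.0% of all tested genes did not overlap (28.1% lower and 28.9% higher). Without obese replicate 3, 4 of the 8 fell and 1 rose, Aldh1a2 being the gene whose call ended (edgeR adjusted p = 0.0519), with a median of −1.69, beside 64.8% of all genes tested without it (33.6% lower and 31.1% higher).

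**Figure D1:**
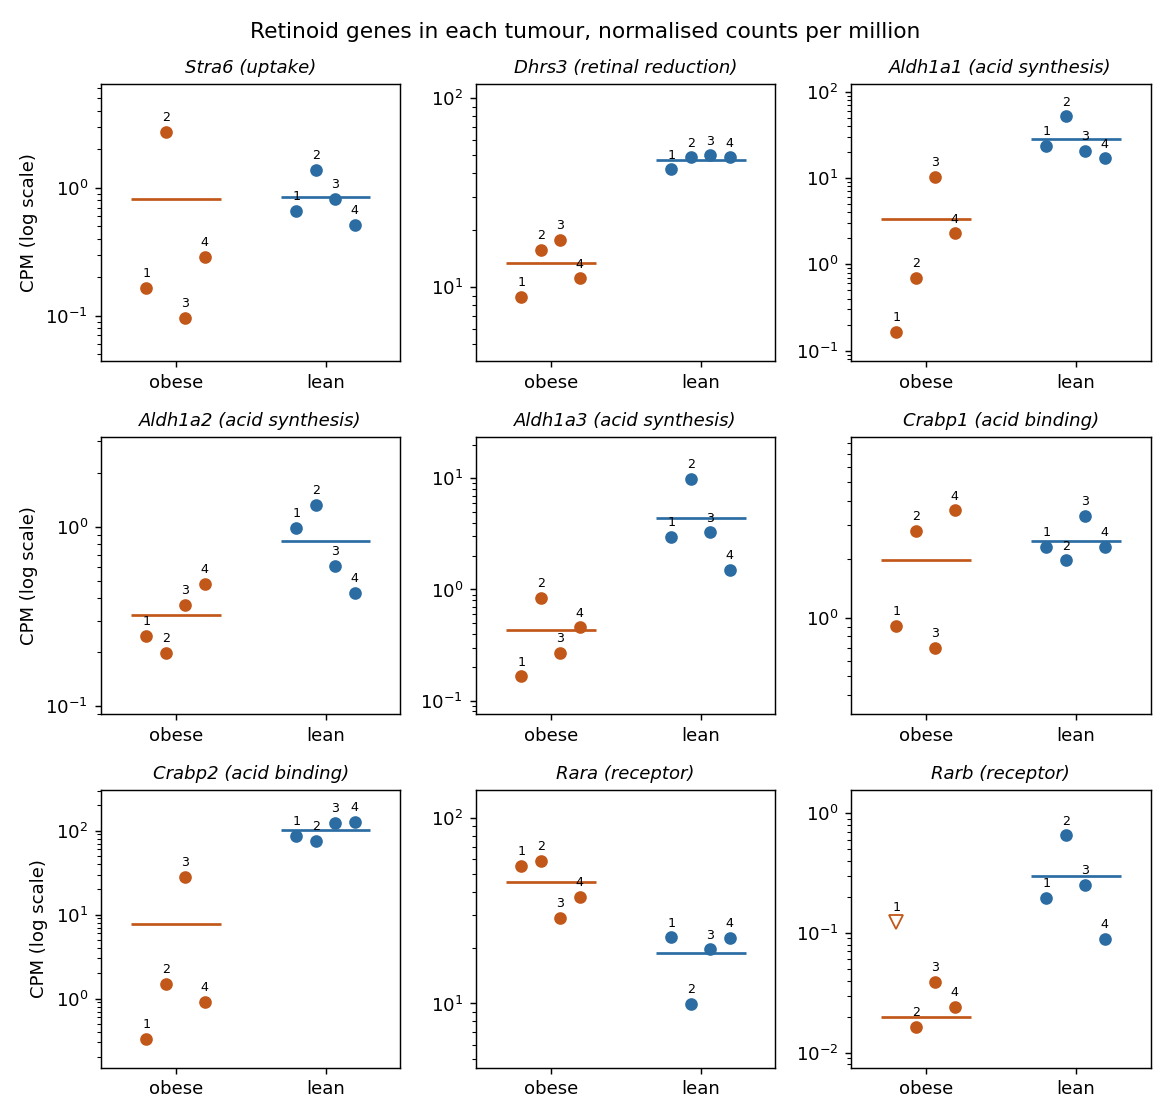
Normalised level of each of the 9 retinoid genes in every tumour, in CPM on a log axis. Points are tumours with their replicate numbers, bars are group means, and an open triangle marks a count of 0 drawn at its 3-count limit; the groups do not overlap for Dhrs3, Aldh1a1, Aldh1a3, Crabp2 and Rara, while for Rarb the limit of obese replicate 1 (0.124 CPM) lies above lean replicate 4 (0.0888 CPM).

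Stra6, the retinol uptake receptor (ENSMUSG00000032327, chromosome 9, 58063788 to 58153996, plus strand), was low in every tumour. It stood at 0.165, 2.72, 0.0967 and 0.288 CPM in obese replicates 1 to 4 and at 0.663, 1.38, 0.820 and 0.515 CPM in lean replicates 1 to 4. Obese replicate 2 was the highest of all 8 tumours, while the other 3 obese tumours were the lowest. The log2 change was −0.02 ± 0.997 (SE, edgeR adjusted p = 0.987), and without obese replicate 3 it was 0.37 (edgeR adjusted p = 0.730). Without obese replicate 2 it was −2.18 and passed the test (edgeR adjusted p = 0.0192), so that the result rested on that tumour.

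Dhrs3, a short-chain dehydrogenase that reduces retinal back to retinol and is itself known to be induced by retinoic acid (ENSMUSG00000066026, chromosome 4, 144892827 to 144928209, plus strand), gave the most even difference. Its level was 8.88, 15.6, 17.7 and 11.1 CPM in obese replicates 1 to 4 and 41.9, 48.5, 49.7 and 48.4 CPM in lean replicates 1 to 4. Every obese tumour lay well below every lean tumour, obese replicate 3 included. Mean Dhrs3 was 13.3 ± 4.06 CPM in the obese group against 47.1 ± 3.54 CPM in the lean group (SD, n = 4 each), and it fell with a log2 change of −1.82 ± 0.23, or 3.53-fold lower (edgeR adjusted p = 0.000664). The call held under each of 18 other settings, with changes of −2.03 to −1.64.

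All 3 ALDH1A genes, which make the acid from retinal, were lower in obese tumours, with unequal firmness. Aldh1a3 (ENSMUSG00000015134, chromosome 7, 66390890 to 66427517, minus strand) was at 0.165, 0.841, 0.271 and 0.456 CPM in obese replicates 1 to 4. In lean replicates 1 to 4 it was at 2.95, 9.85, 3.26 and 1.51 CPM. The groups did not overlap, and lean replicate 2 held more than the other 3 lean tumours together. Aldh1a3 fell from 4.39 ± 3.72 to 0.433 ± 0.297 CPM, a log2 change of −3.31 ± 0.74, or 9.91-fold lower (edgeR adjusted p = 0.00705). Without lean replicate 2 the change was −2.54 (edgeR adjusted p = 0.0109), and the call held under all 18 settings tried.

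Aldh1a1 (ENSMUSG00000053279, chromosome 19, 20492715 to 20643465, plus strand) was the most abundant of the 3 in lean tumours. It was at 0.165, 0.692, 10.2 and 2.28 CPM in obese replicates 1 to 4 and at 23.4, 51.5, 20.5 and 16.8 CPM in lean replicates 1 to 4. No obese tumour reached a lean one, but obese replicate 3 lay far closer to them than obese replicate 1, whose value rested on 4 counts. The log2 change was −3.06 ± 1.10, or 8.34-fold lower (edgeR adjusted p = 0.0427), and without obese replicate 3 it was −4.70 (edgeR adjusted p = 0.00222). The call ended in 8 of 18 other settings, with an adjusted p of up to 0.0993 when obese replicate 4 was left out. The close paralogue Aldh1a7 starts 49.5 kb past the end of Aldh1a1 on the other strand, and how reads that match both genes were counted is not given in the sources used here.

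Aldh1a2 (ENSMUSG00000013584, chromosome 9, 71215789 to 71296243, plus strand) was the lowest of the family per length in lean tumours. Its level was 0.248, 0.198, 0.367 and 0.480 CPM in obese replicates 1 to 4 and 0.982, 1.32, 0.605 and 0.426 CPM in lean replicates 1 to 4. The groups overlapped, because lean replicate 4 lay below obese replicate 4. Aldh1a2 fell by 1.36 ± 0.48 on the log2 scale (edgeR adjusted p = 0.0385). This call ended in 10 of 17 other settings, limma-voom among them (adjusted p = 0.0575), and with sample quality weights the change was −0.64 (limma-voom adjusted p = 0.184).

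Because the 3 enzymes fell by different amounts, their make-up was compared as each gene's share of the summed ALDH1A counts per kb of exon. The summed level was 0.179, 0.410, 2.29 and 0.772 CPM per kb in obese replicates 1 to 4 and 5.81, 13.1, 5.12 and 3.92 CPM per kb in lean replicates 1 to 4. Aldh1a1 made up 79.3 to 86.9% of it in the lean tumours, and 18.7, 34.2, 90.4 and 59.8% in obese replicates 1 to 4. The obese tumours thus spread more widely than the lean ones and on both sides of them. The mean share of Aldh1a1 was 50.8 ± 31.4% against 82.2 ± 3.26% (SD, n = 4 each), a difference that an exact permutation test, two-sided over the 70 assignments of tumours to groups, did not separate (p = 0.143, adjusted p = 0.171 over 6 shares). The share of Aldh1a2 was 29.3 ± 23.0% against 5.48 ± 1.36% (exact permutation p = 0.0571, adjusted p = 0.0857). The share of Aldh1a3 was 19.95 ± 17.8% against 12.3 ± 3.42% (exact permutation p = 0.571, adjusted p = 0.571). Only 14 counts lay behind the 3 shares in obese replicate 1, where Aldh1a1 took 28.6% of counts (exact 95% binomial interval 8.39 to 58.1%), against 1057 to 3270 counts in the lean tumours.

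**Figure D2:**
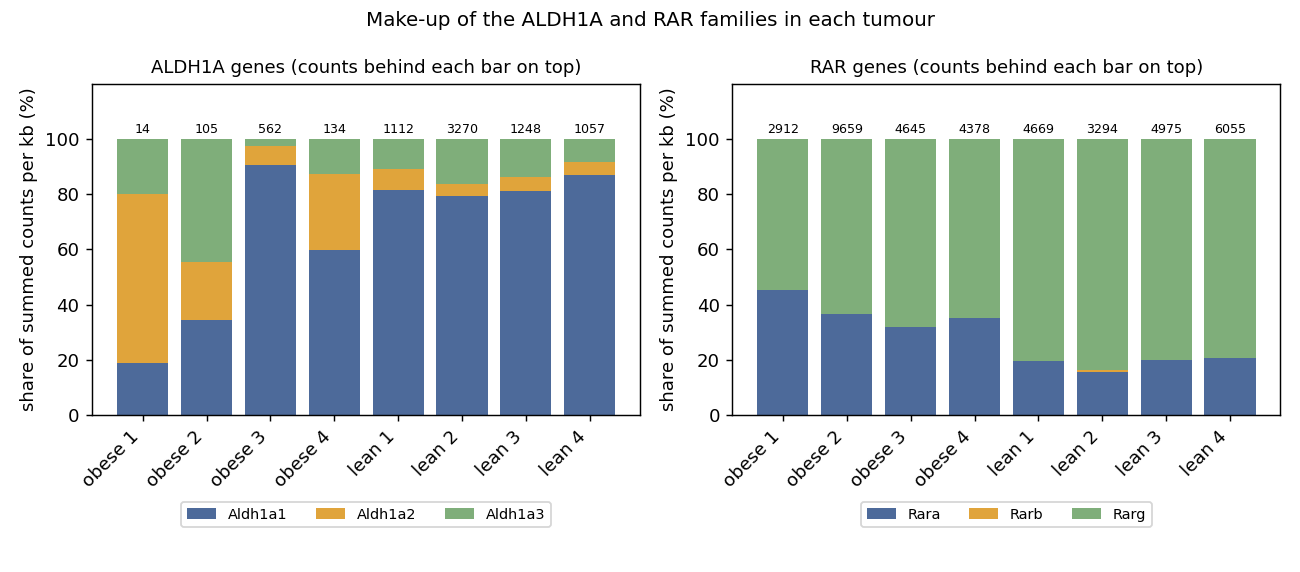
Share of each gene, in percent, of the summed counts per kb of exon of the ALDH1A genes and of the retinoic acid receptor genes in each tumour. The Aldh1a1 share lies between 79.3 and 86.9% in the lean tumours and between 18.7 and 90.4% in the obese tumours, and the Rara share is higher in every obese tumour.

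The acid-binding proteins CRABP1 and CRABP2 are close relatives with different known roles: CRABP2 hands retinoic acid to the receptors in the nucleus, while CRABP1 has been linked to its breakdown. Crabp2 (ENSMUSG00000004885, chromosome 3, 87948666 to 87953376, plus strand) was at 85.9, 75.1, 123 and 127 CPM in lean replicates 1 to 4. In obese replicates 1 to 4 it was at 0.330, 1.48, 28.0 and 0.912 CPM. Obese replicate 3 held far more than any other obese tumour and still lay below every lean one. Crabp2 fell from 103 ± 26.3 to 7.67 ± 13.5 CPM, a log2 change of −3.74 ± 1.32, or 13.3-fold lower (edgeR adjusted p = 0.0399). Without obese replicate 3 the change was −6.73 ± 0.52 (edgeR adjusted p = 5.97e-05). The adjusted p rose above the threshold in 9 of 18 other settings, up to 0.0972 with 1 surrogate variable as a covariate.

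Crabp1 (ENSMUSG00000032291, chromosome 9, 54764748 to 54773110, plus strand) showed no such difference. It was at 0.908, 2.80, 0.696 and 3.58 CPM in obese replicates 1 to 4 and at 2.31, 1.97, 3.36 and 2.31 CPM in lean replicates 1 to 4. The obese values lay on both sides of the lean ones. The log2 change was −0.31 ± 0.55 (edgeR adjusted p = 0.638), and offsets for GC content and exon length turned it to 0.40. Without obese replicate 3 it was −0.01 (edgeR adjusted p = 0.982).

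**Figure D3:**
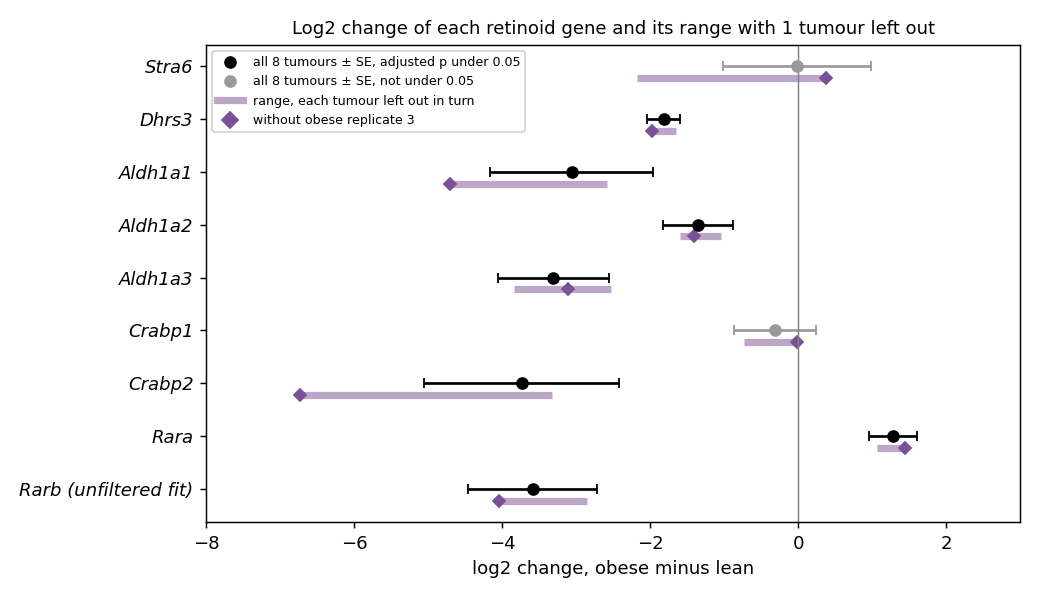
Log2 change (obese minus lean) of each tested retinoid gene with its SE, and of Rarb, which did not pass the filter, from the fit without the filter. Black points passed an adjusted p of 0.05 and grey points did not. Purple bars span the values with each tumour left out in turn, and diamonds leave out obese replicate 3. Leaving out obese replicate 3 moved Crabp2 from −3.74 to −6.73 and Aldh1a1 from −3.06 to −4.70, while Dhrs3 and Rara kept their direction and call in every such fit.

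Of the listed receptors, Rara was higher in obese tumours, while Rarb was lower on few counts. Rara, which encodes the broadly expressed receptor RAR-alpha (ENSMUSG00000037992, chromosome 11, 98927818 to 98974942, plus strand), was at 55.3, 58.9, 29.0 and 37.5 CPM in obese replicates 1 to 4. In lean replicates 1 to 4 it was at 22.7, 9.93, 19.5 and 22.6 CPM. Every obese tumour lay above every lean tumour, obese replicate 3 by the narrowest margin. Rara rose from 18.7 ± 6.03 to 45.2 ± 14.3 CPM, a log2 change of 1.27 ± 0.32, or 2.42-fold higher (edgeR adjusted p = 0.0116). All 18 other settings kept the call, with changes of 1.02 to 1.61.

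Rarb encodes RAR-beta, whose promoter holds one of the best known retinoic acid response elements and whose RNA is a classical readout of retinoic acid signalling (ENSMUSG00000017491, chromosome 14, 16430839 to 16819156, minus strand). Such an element is a direct repeat, searched here as any pair of the half-sites AGGTCA or AGTTCA or GGGTCA or GGTTCA on either strand with 5, 2 or 1 bases between them. RefSeq promoter windows from 250 bases before to 50 after the start (GRCm38.p6) were present for 7 of the 9 genes, 16 windows in all. The Rarb window was the only one of the 16 with a match, a repeat spaced by 5, a form found in 0.0974% of all 32851 windows. Repeats spaced by 2 and by 1 were found in 0.268% and 0.222% of all windows. The repeat lies 53 to 37 bases before the start on the strand of the gene. The 130 bases next to the start are shown with those of Cyp26a1, the retinoic acid hydroxylase, whose repeat lies 32 to 16 bases upstream on the opposite strand. The half-sites are in capitals, and each sequence reads 5′ to 3′ along the gene.
Rarb, chr14:16575477-16575606, minus strand: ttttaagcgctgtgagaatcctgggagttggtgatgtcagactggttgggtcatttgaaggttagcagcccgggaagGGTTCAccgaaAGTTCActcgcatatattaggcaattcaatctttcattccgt
Cyp26a1, chr19:37697678-37697807, plus strand: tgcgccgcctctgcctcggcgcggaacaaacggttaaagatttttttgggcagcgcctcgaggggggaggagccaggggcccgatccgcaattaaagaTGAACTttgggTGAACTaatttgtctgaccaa
A match of letters is a description and does not show a bound site. Of the 31 genes with such a repeat, 6 were tested, of which 3 rose and 1 fell (Cyp26a1), beside 30.9% and 28.4% of all tested genes, and nothing is read from so few genes.

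Rarb RNA was near the limit of detection in obese tumours. It had 0, 1, 2 and 1 counts in obese replicates 1 to 4 and 8, 34, 13 and 5 counts in lean replicates 1 to 4, a total of 4 against 60. On the CPM scale, lean tumours held 0.196, 0.651, 0.254 and 0.0888 CPM, and obese replicates 2, 3 and 4 held 0.0165, 0.0387 and 0.024 CPM. With the 0 of obese replicate 1 taken as measured, the groups did not overlap (exact permutation p = 0.0286, two-sided, the smallest that 4 against 4 can give). That 0 allows up to 0.124 CPM, which is above lean replicate 4, so that its place below every lean tumour was not resolved at this depth. An edgeR fit without the filter, in which 46.0% of 19257 genes passed and 21.5% fell, gave a log2 change of −3.59 ± 0.87 (adjusted p = 0.0111). With each tumour left out of that fit the change was −4.04 to −2.86, the latter without lean replicate 2, and stayed past the threshold. The far end of Rarb overlaps Top2b on the other strand, which stood at 151 CPM in obese and 118 CPM in lean tumours. Whether reads of Top2b enter the Rarb count was not tested. The strand setting of the counting is not given in the sources used here.

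Rarg, the third retinoic acid receptor gene and an epithelial one, differed by less than the spread between tumours. It was at 73.4 ± 18.2 CPM in obese and 76.6 ± 17.1 CPM in lean tumours (log2 change −0.06 ± 0.22, edgeR adjusted p = 0.821). Rara made up 45.4, 36.4, 31.8 and 35.2% of the summed receptor counts per kb in obese replicates 1 to 4 and 19.4, 15.4, 19.7 and 20.6% in lean replicates 1 to 4. The shares of Rara did not overlap, with means of 37.2 ± 5.81% against 18.8 ± 2.31%, and Rarg took nearly all the rest. Exact permutation tests of the shares of Rara, Rarb and Rarg each gave p = 0.0286, the smallest possible, and an adjusted p of 0.0571 over the 6 shares, above the threshold. The summed level of the 3 receptors overlapped between the groups, at 27.6 ± 6.92 against 22.3 ± 5.33 CPM per kb.

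Compared per kb of exon, the order of the genes differed between the groups. In lean tumours Crabp2 was the highest at 77.8 ± 19.9 CPM per kb, followed by Dhrs3 at 16.1 ± 1.21 CPM per kb. Aldh1a1 (5.68 ± 3.21), Rara (4.28 ± 1.38) and Crabp1 (3.10 ± 0.75) came next and did not differ from each other beyond their spread. Aldh1a3 (0.951 ± 0.805), Aldh1a2 (0.368 ± 0.176), Stra6 (0.145 ± 0.065) and Rarb (0.057 ± 0.047) were at or below about 1 CPM per kb. The values of each overlapped those of its neighbour across tumours, but within every lean tumour these genes kept this order. In obese tumours Rara led at 10.3 ± 3.27 CPM per kb, and Crabp2 (5.80 ± 10.2), Dhrs3 (4.55 ± 1.39) and Crabp1 (2.49 ± 1.77) followed within their spread. The place of Crabp2 rested on obese replicate 3, since in each of the other 3 obese tumours Crabp2 lay below both Dhrs3 and Crabp1 per kb. The other 5 genes were at means of 0.677 CPM per kb or less.

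The wider pathway was described from 78 other genes listed by role, of which 77 are in the count table and 63 were tested. In it 18 genes rose, 15 fell and 30 did not pass the test, with a median log2 change of −0.05, close to the shares and the median of all tested genes. In the plot of the pathway by role, 6 of the 9 roles held both genes that rose and genes that fell.

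**Figure D4:**
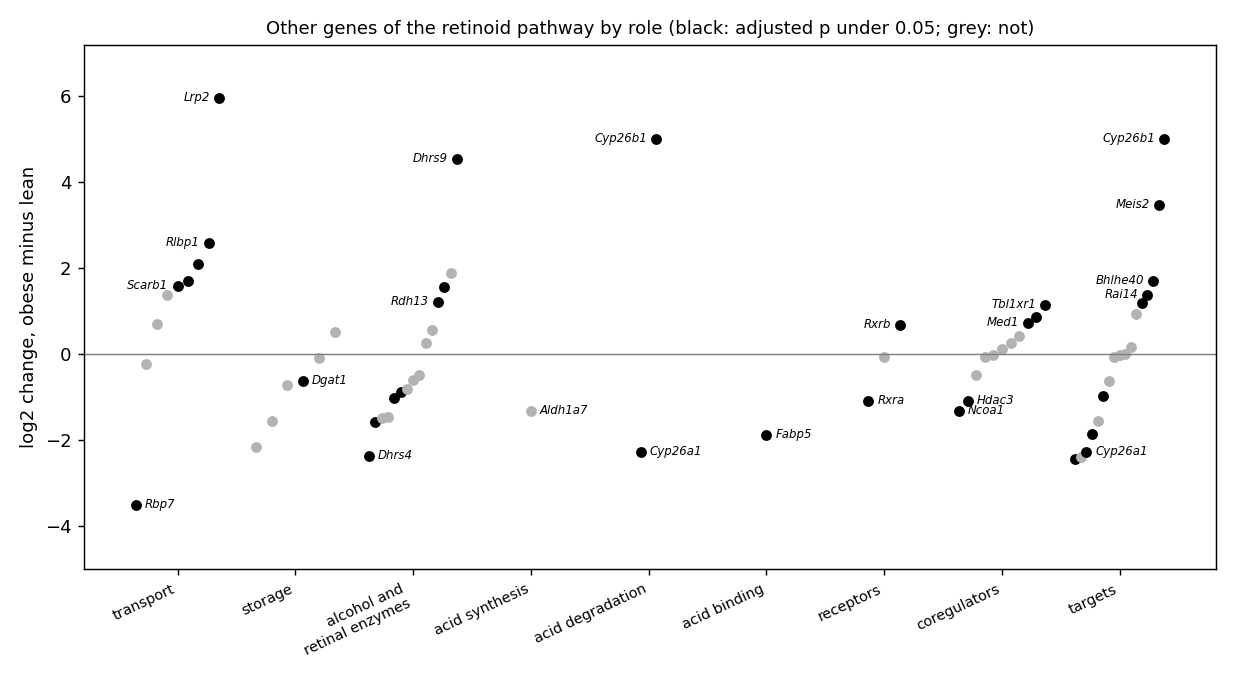
Log2 change (obese minus lean) of the tested genes of the wider retinoid pathway, grouped by role; black points passed an adjusted p of 0.05, grey points did not, genes in more than 1 role are drawn in each, and Rdh8, at 0 in all lean tumours, and genes not reported here are left out. The points run from −3.49 for Rbp7 to 5.96 for Lrp2, with Cyp26b1 at 5.0 and Cyp26a1 at −2.28.

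Of 10 tested transport genes 5 rose, 1 fell and 4 did not pass, beside 30.9% higher and 28.4% lower among all tested genes. Scarb1, the HDL receptor that also takes up carotenoids, rose from 79.8 ± 19.0 to 239.7 ± 42.0 CPM (log2 change 1.59 ± 0.20, edgeR adjusted p = 0.000736). Lrp2, the endocytic receptor megalin, which takes up retinol-binding protein, rose from 0.236 ± 0.326 to 14.8 ± 10.9 CPM (5.96 ± 1.31, edgeR adjusted p = 0.00656). Rlbp1, which binds retinal, was at 0.710 ± 0.293 against 0.115 ± 0.095 CPM and rose by 2.58 ± 0.63 (edgeR adjusted p = 0.00939). Rbp7, a cellular retinol-binding protein gene, lay the other way and fell from 101 ± 54.4 to 8.97 ± 9.75 CPM (−3.49 ± 0.91, edgeR adjusted p = 0.0129), and by 4.54 without obese replicate 3. The Rlbp1 call ended with 1 surrogate variable (edgeR adjusted p = 0.0530). Without lean replicate 2 the changes of Lrp2 and Rlbp1 were 7.61 and 3.26, and over all other settings that of Lrp2 ran from 4.27 to 8.90.

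Of 16 tested alcohol and retinal enzymes 4 rose, 4 fell and 8 did not pass, beside 30.9% and 28.4% of all tested genes. Dhrs9, which oxidizes retinol, rose from 2.07 ± 1.24 to 48.3 ± 13.1 CPM (log2 change 4.55 ± 0.46, edgeR adjusted p = 0.000325). Rdh13, a mitochondrial retinol dehydrogenase, rose from 17.0 ± 2.66 to 39.2 ± 5.78 CPM (1.21 ± 0.17, edgeR adjusted p = 0.00104). Rdh8, known from photoreceptors, had 77 counts over the obese tumours and 0 over the lean ones, which makes it at least 28.9-fold higher, taking 3 counts over the lean group as the limit. Dhrs4, a retinal reductase like Dhrs3, fell from 66.8 ± 3.90 to 12.9 ± 8.93 CPM (−2.37 ± 0.43, edgeR adjusted p = 0.00294), and by 2.97 on the log2 scale without obese replicate 3. Of 6 tested storage genes 1 fell, beside 28.4% of all tested genes. This was Dgat1, which esterifies retinol and diglycerides (−0.61 ± 0.22, edgeR adjusted p = 0.0396). Its call ended in 9 of 18 other settings, among them without obese replicate 3 (edgeR adjusted p = 0.0569). Aldh1a7, the neighbour of Aldh1a1, did not pass the test (−1.32 ± 1.24, edgeR adjusted p = 0.374), and without obese replicate 4 it was at −3.97 (edgeR adjusted p = 0.0214), while without lean replicate 2 it was at −0.35. Aldh8a1, at a mean of 0.028 CPM in obese and 0.067 CPM in lean tumours, had too few counts to be tested.

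The enzymes that degrade retinoic acid moved apart. Cyp26b1 was at 160, 105, 42.0 and 76.6 CPM in obese replicates 1 to 4 and at 4.76, 2.05, 1.68 and 3.50 CPM in lean replicates 1 to 4. Every obese tumour held several times the level of any lean one, a log2 change of 5.0 ± 0.54 (edgeR adjusted p = 0.000396). Cyp26a1, whose promoter repeat is shown above with that of Rarb, was at 0.330, 0.577, 0.193 and 0.576 CPM in obese replicates 1 to 4 and at 0.368, 4.06, 3.16 and 0.622 CPM in lean replicates 1 to 4. The groups overlapped, since lean replicates 1 and 4 were near the obese values. Cyp26a1 fell by 2.28 ± 0.82 on the log2 scale (edgeR adjusted p = 0.0415), a call that ended in 9 of 17 other settings. Without obese replicate 3 its change was −2.02 (edgeR adjusted p = 0.0755). Fabp5, which carries retinoic acid among other lipids, fell from 466 ± 33.4 to 127 ± 67.2 CPM (−1.88 ± 0.37, edgeR adjusted p = 0.00428).

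Among the other receptors Rxra, the main epithelial RXR gene, fell from 113 ± 9.13 to 53.0 ± 8.52 CPM (log2 change −1.09 ± 0.14, edgeR adjusted p = 0.000741). Rxrb rose from 55.5 ± 10.4 to 88.7 ± 11.4 CPM (0.68 ± 0.17, edgeR adjusted p = 0.0102). Rxra and Rxrb, the RXR genes with enough counts to be tested, thus changed in opposite directions. Rxrg had too few counts for the filter, at 0.041 ± 0.032 CPM in obese and 0.323 ± 0.128 CPM in lean tumours. Of 11 coregulators 3 rose and 2 fell, beside 30.9% and 28.4% of all tested genes. Tbl1xr1, a subunit of the nuclear receptor corepressor complex, rose by 1.14 ± 0.25 (edgeR adjusted p = 0.00625), while its partner deacetylase Hdac3 fell by 1.08 ± 0.27 (edgeR adjusted p = 0.0104). Med1, the Mediator subunit that contacts nuclear receptors, rose by 0.72 ± 0.17 (edgeR adjusted p = 0.00763), and the coactivator Ncoa1 fell by 1.31 ± 0.34 (edgeR adjusted p = 0.0123). Of 19 tested target genes, which include Cyp26a1, Cyp26b1 and Rarg again, 5 rose, 5 fell and 9 did not pass. Among all tested genes 30.9% rose and 28.4% fell. The transcription factor gene Bhlhe40 rose from 61.5 ± 7.59 to 200 ± 52.6 CPM (1.70 ± 0.21, edgeR adjusted p = 0.000677). Rai14, named for its induction by retinoic acid, rose from 55.8 ± 14.7 to 146 ± 10.7 CPM (1.39 ± 0.19, edgeR adjusted p = 0.000907).

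Marker sums of several cell types moved with some of the retinoid genes, and their part in these differences was not tested. The marker counts below stand beside 30.9% higher and 28.4% lower among all tested genes. The luminal sum (9 of 9 markers tested, 4 lower) and Epcam are given above, and without obese replicate 3 all 9 luminal markers fell. The basal sum, in which 7 of 7 markers fell, was 89.3, 52.1, 69.3 and 91.0 CPM in obese replicates 1 to 4 and 643, 3597, 1027 and 285 CPM in lean replicates 1 to 4. Lean replicate 2, highest in basal markers, was also the highest lean tumour for Aldh1a1, Aldh1a2, Aldh1a3, Stra6 and Rarb and the lowest for Rara. It was the highest lean tumour for the fibroblast, adipocyte, endothelial and B cell sums as well. For the luminal, macrophage, dendritic cell, T cell, mesothelial, skeletal muscle and keratinocyte sums it was the lowest. But it was also the lowest lean tumour for Crabp2 and Crabp1, and for Dhrs3 it lay between the others. Obese replicate 3, highest of its group in luminal markers, was the highest of its group for Aldh1a1, Crabp2 and Dhrs3 and the lowest for Rara and Cyp26b1. It was also the highest obese tumour for the T cell, dendritic cell and skeletal muscle sums and the lowest for the mesenchymal, fibroblast and adipocyte sums. But it was also the lowest obese tumour for Stra6 and Crabp1, and it lay between the others for Aldh1a2 and Aldh1a3. For Rarb it was the highest of its group, on 2 counts. Mesenchymal genes summed to 4302 to 10437 CPM in obese and 441 to 813 CPM in lean tumours (5 of 8 higher, 2 lower). Keratinocyte markers summed to 0.083 to 3.63 against 6.09 to 358 CPM, the latter in lean replicate 1 and the other lean tumours at 6.09 to 9.56 CPM, with Flg at 0 in all tumours. T cell markers (5 of 5 lower) summed to 16.2 to 50.9 against 65.5 to 165 CPM, and B cell markers (4 of 4 lower) to 2.48 to 8.90 against 22.2 to 52.3 CPM. Sums overlapped between the groups for adipocyte markers, of which 0 of 7 passed the edgeR test, and for fibroblast (3 of 8 higher, 3 lower), endothelial (2 of 6 lower), macrophage, dendritic cell (2 of 6 lower), mesothelial (0 of 1 tested called) and skeletal muscle markers (0 of 4 called). Of 7 macrophage markers 4 rose without overlap (Adgre1, Cd68, Fcgr1 and Mrc1, the last by a log2 change of 2.93) and 1 fell (Csf1r), while C1qa and C1qb did not pass the edgeR test.

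The genes most like each retinoid gene were those with the smallest root mean square difference of centred log2 CPM over the 8 tumours. Dhrs3 was followed most closely by Amacr, a peroxisomal racemase (difference 0.115), and Shisa4 (0.160). Rara was followed by the lipid transporter gene Abca7 (0.134) and by Lemd2 (0.164). For Crabp2 the nearest were Alpl, alkaline phosphatase (0.211), and Rab40b (0.246), for Aldh1a2 Pcdh19 (0.231) and Peli2 (0.269), and for Aldh1a1 the insulin receptor substrate gene Irs1 (0.293) and Pcdh18 (0.412). The nearest genes lay farther off for Crabp1 (Per3 0.371, Ankrd13d 0.426), Stra6 (Pmp22 0.416, Slit2 0.676) and Aldh1a3 (Nlrp10 0.439, Ralgps2 0.481).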

How the data were processed

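RNA from 8 snap-frozen tumours (RNeasy Mini kit, TruSeq Stranded kit, per the labels' protocols) was sequenced. The authors deposited whole-number counts per Ensembl gene, 1 column per tumour. Alignment software STAR 2.5.2b, the trimmer cutadapt 1.12, HTSeq, the tools CASAVA 1.8 and bcl2fastq 2.18.0.12 and genome build mm10 come from the submitters' processing notes. The annotation, the strand setting and the HTSeq version are not given in the sources used here. All values were checked to be whole, no 2 libraries were duplicates, and 731 IDs had no GENCODE M21 symbol.

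Groups came from the labels, which give no batch or pairing, and replicate numbers only name tumours. Genes passing filterByExpr (minimum count 10, minimum total 15) were scaled by TMM, and the groups were compared by the quasi-likelihood F test of edgeR with robust dispersion (two-sided, Benjamini-Hochberg over 14887 genes, threshold 0.05), and SE is the log2 change over the square root of F. Shares of summed counts per kb of exon were compared by exact permutation over 70 assignments. Named genes were all 9 retinoid genes and, per role list, up to 4 called genes with the smallest p, or the 2 most abundant where none was called. For each tested retinoid gene the 2 nearest genes were named among tested genes with a mean log2 CPM of at least 0. The genes and lists were chosen with earlier results of these data known. Some genes of the lists enter the counts but are not reported here by name. Alternatives were other scalings, filters and tests (DESeq2 1.42.0, limma 3.58.1), 1 surrogate variable (sva 3.50.0), GC and length offsets and each tumour left out. Fits without obese replicate 3 for the lists, the coding length and the unfiltered Rarb fit were added after seeing the data. The steps were tested on simulated data (R 4.3.3, edgeR 4.0.16).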

Additional observations from a re-analysis of the deposited data

Results flagged for a closer look

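In 6 of 76 groups of 4 tumours examined, 1 tumour lay farther from its group than Dixon's test at the 95% level allows, where chance gives about 1 in 20 groups. Obese replicate 2 held 2.72 CPM of Stra6 against 0.0967 to 0.288 CPM in the other obese tumours. Obese replicate 3 held 28.0 CPM of Crabp2 against 0.330 to 1.48 CPM in the other obese tumours. Obese replicate 4 held 1.70 CPM of Aldh1a7 against 0.0387 to 0.165 CPM. Lean replicate 1 lay lowest of its group for Dhrs3, at 41.9 CPM against 48.4 to 49.7 CPM, and for Rxra, at 99.4 CPM against 116 to 119 CPM. Lean replicate 2 held 53.1 CPM of Med1 against 36.7 to 39.3 CPM.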

How the results depend on the processing

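Of the 9 retinoid genes, 5 were called lower, and with each tumour left out in turn 2 to 4 were. With 1 surrogate variable 3 were, namely Dhrs3, Aldh1a2 and Aldh1a3. Without the filter 3 were, namely Dhrs3, Aldh1a3 and Rarb, the last not tested in the main fit. In that unfiltered fit the calls of Aldh1a1, Aldh1a2 and Crabp2 ended (edgeR adjusted p = 0.0598, 0.0631 and 0.0571). With 1 surrogate variable 2688 of all genes fell in place of 4221. Without the filter 4148 of 19257 fell. With each tumour left out in turn 3136 to 5107 of 15029 to 15220 genes fell, the most without obese replicate 3. Stra6 changed sign without the filter (0.0088), with GC and length offsets (0.066) and over left-out tumours (−2.18 to 0.37), and Crabp1 with those offsets (0.40). Over left-out tumours the difference in share (obese minus lean, percentage points) was −44.6 to −20.7 for Aldh1a1, 13.1 to 31.2 for Aldh1a2, −0.543 to 13.4 for Aldh1a3, 15.6 to 20.2 for Rara and −19.9 to −15.3 for Rarg. Without obese replicate 3 the shares of Aldh1a1, Aldh1a2, Rara and Rarg passed the exact test (adjusted p = 0.0429). Each sat at the smallest p that the remaining tumours can give (exact permutation p = 0.0286). Shares within a family depend on each other, so these are not separate results. Without obese replicate 2 the difference in the share of Aldh1a3 turned sign, and the cause was not tested. The log2 change of Aldh1a3 in that setting was −3.84 (edgeR adjusted p = 0.00946). The median log2 change of all genes was −0.04 under TMM, −0.25 under upper quartile scaling and −0.22 under library size alone, where 52.1%, 41.2% and 42.3% of called genes were higher. No call of Dhrs3, Aldh1a3 or Rara ended. The planned coding length from RefSeq proteins was not run, and GENCODE coding length was used. No paired analysis was possible because the replicate numbers only name tumours. Depth limits Rarb and the ALDH1A shares of obese replicate 1.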

Other observations

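Some homeobox genes among the retinoic acid targets, named after their values were seen apart from Meis2, lay in both directions. Hoxa5, a known target in breast tissue, fell from 1.29 ± 0.417 to 0.233 ± 0.272 CPM (SD, n = 4 each, log2 change −2.43 ± 0.74, edgeR adjusted p = 0.0232), and by 3.69 without obese replicate 3 (edgeR adjusted p = 0.000651). Hoxa4 (−1.86 ± 0.37, edgeR adjusted p = 0.00417) and Hoxb4 (−0.98 ± 0.27, edgeR adjusted p = 0.0160) also fell, both at low levels. Both tested MEIS genes rose, Meis2 from 0.825 ± 0.449 to 9.21 ± 3.89 CPM (3.48 ± 0.56, edgeR adjusted p = 0.00191) and Meis1 from 3.03 ± 0.815 to 6.90 ± 2.53 CPM (1.18 ± 0.36, edgeR adjusted p = 0.0218).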
